A study of Neurospora crassa with 24 samples.

Results

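The genes described here lie near the ends of the chromosomes of *Neurospora crassa*, a filamentous ascomycete. On each of chromosomes I to VII, the lowest start and the highest end of any gene in the table of counts were taken as the ends. A gene was a member if it started within 100000 bases of the lower end or ended within 100000 bases of the upper end. The rule used position only, and it gave 393 genes of 9758 (4.03%), with between 12 genes (right end of I) and 39 genes (right end of V) at each of the 14 ends. They were compared with 9337 other nuclear genes. The genes nearest the limit were NCU09465, a member 99643 bases from the right end of II, and NCU09660. The latter lay 100006 bases from the left end of IV and was not a member.

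RNA-seq libraries of a Δ*ve-1* strain and of its wild type, both in the OR74A background, were prepared from 3 kinds of culture. In the mutant, *ve-1* was deleted. It encodes a velvet protein, a regulator of development and secondary metabolism in fungi. Vegetative mycelia (V) were grown submerged for 48 h, with light for the last 30 min or in the dark, in 2 libraries for each strain and condition. Aerial tissue collected 15 h after conidiation was induced (A15) was exposed to light for the last 30 min or kept in the dark, again in 2 libraries each. Submerged shaken mycelia (S) were grown for 24 h in the dark, in 4 libraries for each strain. Aerial tissue is a mixture of aerial hyphae and developing conidia, and V, S and A15 differed in age and growth form as well as in stage, and A15 stood on solid medium. By the study's methods V was also grown at a lower temperature than S and A15, so that temperature and kind of culture cannot be told apart where V and A15 are set side by side. The mutant was 1 strain, and nothing in the labels says that the libraries of a group came from separate cultures, so the *P* values measure the spread between these libraries.

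The regions next to telomeres of filamentous fungi are known for genes that are used under particular conditions, such as those of secondary metabolism, transport and breakdown of polymers. In *N. crassa*, large parts of these regions carry the histone methylation placed by the Polycomb repressive complex, and many of the genes there are silent in growing mycelia. Chromatin was not measured here.

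Total counts per library ranged from 14010994 to 21885041, and 3 counts, taken as the detection floor, were between 0.137 and 0.214 CPM (counts divided by the size of the library). CPM given below for genes also carry the TMM scaling of edgeR, done apart for V and for S with A15. Between 2.23% and 4.96% of the counts of a library fell on the members. The deleted gene had 0.794 to 6.49 CPM in 11 of the 12 Δ*ve-1* libraries, against 71.0 to 223 CPM in the wild type, and the remaining one, Δ*ve-1* S replicate 1, had 18.6 CPM. That library was set apart from its group in this respect, and the counts of members called in the comparisons with Δ*ve-1* S are also given without it. Fold changes, medians, DEG counts, shared calls and runs are given with it only. The conidiation markers *con-6*, *con-8*, *con-10*, *con-13*, *eas* and *fl* were present in every A15 library, and *con-13* was at 0 in both Δ*ve-1* V groups and in wild-type dark V. All 6 rose in A15 over S in both strains. Conidiation markers summed to 157000 to 184000 CPM in Δ*ve-1* and 59400 to 68500 CPM in the wild type in dark A15, and to 99400 to 136000 CPM in Δ*ve-1* and 37800 to 101000 CPM in the wild type in light A15. Most of the sum was *eas*, with 150000 to 177000 CPM in Δ*ve-1* and 56400 to 66800 CPM in the wild type in dark A15. None of the 6 markers was called between the strains, but this sum moved with the strain in dark A15, and its part in the strain effects of the members was not tested.

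In every group, mRNA accumulation per length was lower for the members than for the other genes. The median CPM per kb of gene span was 2.25 against 5.36 in Δ*ve-1* S, 2.28 against 5.38 in wild-type S, 3.84 against 6.49 in Δ*ve-1* dark A15 and 4.86 against 6.45 in wild-type dark A15. The share of genes under 1 CPM per kb in Δ*ve-1* S was 42.2% for members and 29.4% for other genes. Members with no count in any library were still fewer, 13 of 393 (3.31%) against 630 of 9337 other genes (6.75%). Of the 393 members, 334 passed the filter on low counts in at least 1 of the 3 sets of libraries, and 240 of these (71.9%) were called in at least 1 comparison, against 61.7% of all genes tested.

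The members with the highest levels per length were *aac* (NCU09477), which encodes the ADP/ATP carrier of mitochondria, and its neighbors NCU09476 and NCU09475 at the right end of II. *aac*, NCU09476 and NCU09475 averaged 3090, 2560 and 1200 CPM per kb over all groups and ranked 11, 18 and 69 among nuclear genes. The conidiation gene *con-6* (NCU08769) averaged 2200 CPM per kb, at rank 23. The heat shock gene *hsp70-1* (NCU09602) and NCU10040 were at ranks 142 and 157. *con-6* alone moved the share of counts on the members: it was 4.14% ± 0.081 in Δ*ve-1* light A15 (SD, n = 2) with *con-6* and 2.65% ± 0.011 without it. In dark A15 the share was 2.59% ± 0.005 in Δ*ve-1* and 4.23% ± 0.374 in the wild type (SD, n = 2 each), and NCU10040 alone held 0.024% of the counts in Δ*ve-1* and 0.946% in the wild type.

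**Figure D1:**
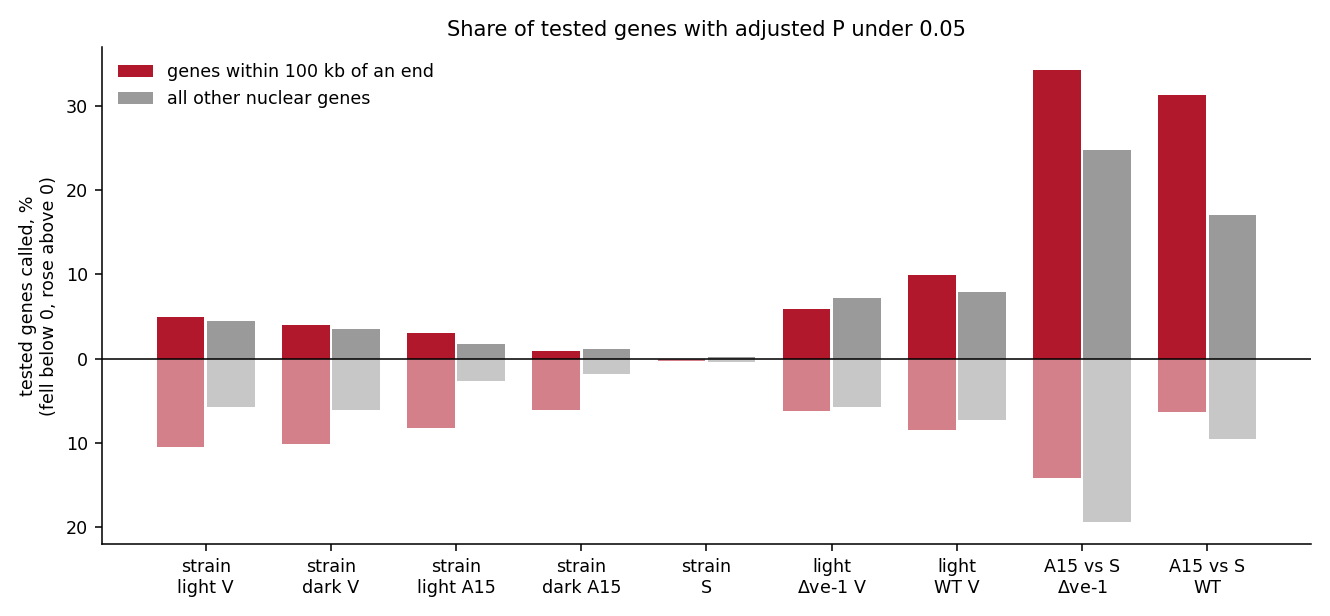
Share of tested genes called with an adjusted P under 0.05, in percent, for the genes within 100 kb of a chromosome end (red) and all other nuclear genes (gray), with genes that rose above 0 and genes that fell below 0. The members were called more often than other genes in both A15 over S comparisons among genes that rose (34.3% and 31.3% of members), and in the strain comparisons of V and A15 among genes that fell.

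The comparison of dark A15 with S asked which genes changed as aerial tissue developed. Many members rose. In Δ*ve-1*, 114 of 332 tested members rose and 47 fell (edgeR quasi-likelihood test, Benjamini-Hochberg adjusted *P* under 0.05), when 25.1% of all tested genes rose and 19.2% fell. Members thus rose at 34.3% and fell at 14.2%. In the wild type, 104 members rose (31.3%) and 21 fell (6.33%), when 17.5% of all tested genes rose and 9.47% fell. The median log2FC of the members was 0.53 in Δ*ve-1* and 0.55 in the wild type, against 0.09 and 0.01 for other genes. With the genes that had no count in a group set at the bound from 3 counts, these medians were 0.48 and 0.55. Scaling by library size alone put the median of all genes at 0.36 in Δ*ve-1* and 0.44 in the wild type, and the members lay 0.37 and 0.52 above it. In the same direction in both strains, 81 members rose, which are 71.1% of those that rose in Δ*ve-1* and 77.9% of those that rose in the wild type, against 56.2% and 80.4% over all genes tested.

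By the rule of the study for differentially expressed genes (DEGs, an absolute log2FC of at least 2 and an adjusted *P* under 0.001), 54 members rose and 9 fell in Δ*ve-1*, 19.0% of those tested when 11.8% of all genes were DEGs. In the wild type, 48 rose and 3 fell, 15.4% of members when 6.07% of all genes were DEGs. The study used this rule with DESeq2, and here it was applied to the edgeR test throughout. The wild-type count depended on both dark A15 libraries: 73 members were called without replicate 1 (20.2% rose, against 10.1% of all genes tested) and 80 without replicate 2 (22.0% rose, against 11.5% of all genes tested). In Δ*ve-1*, 160 members were called without S replicate 1 (34.6% rose, against 25.9% of all genes tested).

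The rise was not spread evenly along the 100000 bases. Among the 84 tested members in the outermost 25 kb, 40 rose and 6 fell in Δ*ve-1* (median log2FC 1.19), and 35 rose and 3 fell in the wild type (median log2FC 1.16). From 50 to 75 kb, 25 of 89 rose and 19 fell in Δ*ve-1* (median log2FC 0.25), and 27 rose and 7 fell in the wild type (median log2FC 0.14). The medians did not fall steadily with distance: from 175 to 200 kb, outside the members, they were 1.07 in Δ*ve-1* and 0.79 in the wild type over 57 genes. Beyond 200 kb they were 0.08 and 0.0. The ends differed among themselves. The median was above 0 at 13 of 14 ends in each strain, between -0.26 (left end of II) and 1.51 (left end of I) in Δ*ve-1* and between -0.01 and 1.47 at the same ends in the wild type.

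**Figure D2:**
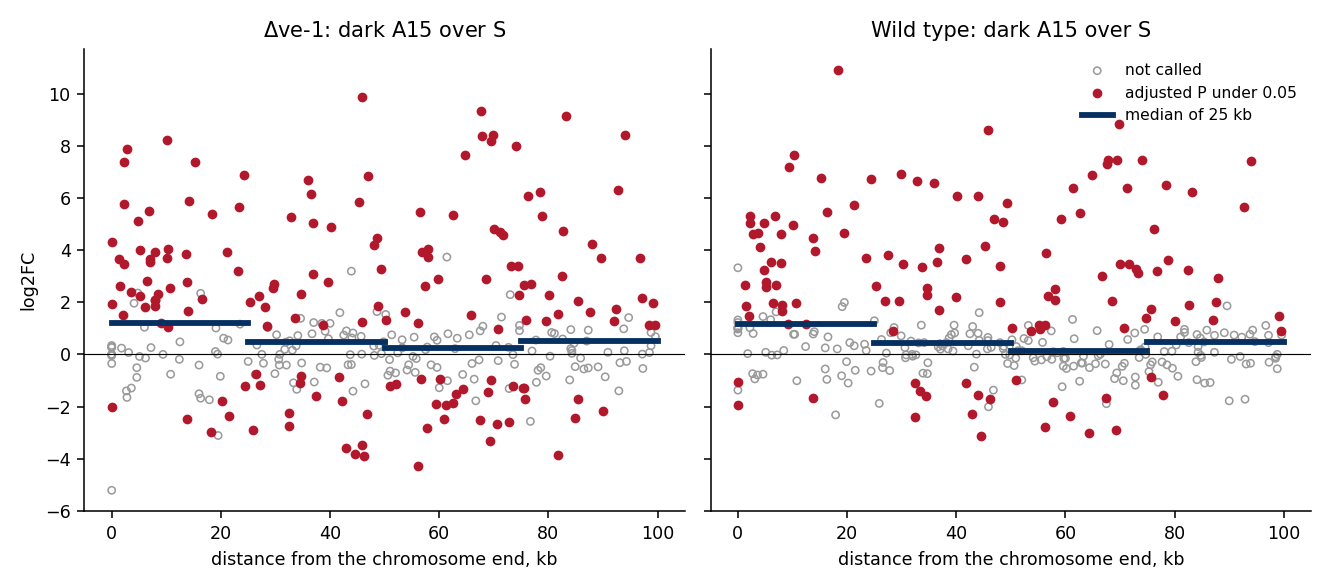
Fitted log2FC of dark A15 over S for each tested member against its distance from the chromosome end in kb, in Δve-1 (left) and the wild type (right). Filled points have an adjusted P under 0.05 and blue bars are medians of 25 kb, which are highest in the outermost bin (1.19 and 1.16).

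The largest rises in both strains included those of *sut-18*, *inl-2*, *con-6* and NCU08770, a gene of unknown function. The sugar transporter gene *sut-18* (NCU09287, chromosome VII, 69.9 kb from the left end) had 310 and 477 CPM in Δ*ve-1* A15 and 1.13, 2.02, 0.75 and 0.647 CPM in Δ*ve-1* S. In the wild type it had 406 and 402 CPM in A15 and 0.728, 0.795, 1.54 and 0.422 CPM in S. The groups did not overlap, and the log2FC was 8.42 ± 0.513 in Δ*ve-1* (SE, adjusted *P* = 4.76e-08) and 8.85 ± 0.523 in the wild type (SE, adjusted *P* = 2.8e-07). The myo-inositol oxygenase gene *inl-2* (NCU08856) had 24.4 and 113 CPM in Δ*ve-1* A15 and at most 0.26 CPM in Δ*ve-1* S, with 81.9 and 103 CPM in wild-type A15 and at most 0.844 CPM in wild-type S. Its log2FC was 8.4 ± 0.587 in Δ*ve-1* and 7.41 ± 0.539 in the wild type (SE).

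The feruloyl esterase gene *fea-1* (NCU09491), which acts on plant cell walls, had 0.235 and 0.424 CPM in Δ*ve-1* dark A15 and 11 and 19.4 CPM in wild-type dark A15. It had no count in the 4 wild-type S libraries, so that its mean was at least 60.0-fold higher in wild-type A15 against a floor of 3 counts in a library. NCU09630 showed the opposite order of strains: 93.7 and 89.0 CPM in Δ*ve-1* dark A15, where it rose over S by a log2FC of 8.23 ± 0.657 (SE), and 17.1 and 16.2 CPM in wild-type dark A15, where it rose by 4.95 ± 0.59 (SE). *con-6* and its neighbor NCU08770 rose with log2FCs of 8.39 and 8.19 in Δ*ve-1* and of 7.47 each in the wild type. The catalase gene *cat-4* (NCU05169) rose by 5.45 ± 0.394 in Δ*ve-1* and 3.89 ± 0.376 in the wild type (SE).

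Among members with a symbol, the β-glucosidase gene *gh3-3* (NCU08755, 15240 bases from the right end of III) had 149 and 95.7 CPM in Δ*ve-1* dark A15 and at most 1.05 CPM in Δ*ve-1* S, with 100.0 and 91.9 CPM in wild-type dark A15 and at most 1.06 CPM in wild-type S. Its log2FC was 7.36 ± 0.53 in Δ*ve-1* and 6.76 ± 0.516 in the wild type (SE). The α-glucosidase gene *gh31-1* (NCU09281) had log2FCs of 6.29 ± 0.596 in Δ*ve-1* and 5.64 ± 0.581 in the wild type (SE). The xylanase gene *gh10-4* (NCU07130) had no count in any V or S library, and 11.3 and 3.39 CPM in Δ*ve-1* dark A15 and 3.49 and 2.59 CPM in wild-type dark A15. Its A15 mean was at least 28.2-fold higher than S in Δ*ve-1* and at least 12-fold higher in the wild type against 3 counts in a library. The proteinase gene *spr-7* (NCU07159) had 159 and 393 CPM in Δ*ve-1* dark A15 and 4.6 to 21.3 CPM in Δ*ve-1* S, with 1970 and 3660 CPM in wild-type dark A15 and 22.4 to 56.1 CPM in wild-type S. It rose in both strains, and its level was lower in Δ*ve-1* than in the wild type in light V (log2FC -1.51 ± 0.356, SE).

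Fewer members fell in A15. NCU05163, 44.5 kb from the right end of IV, had 11.4 and 6.86 CPM in Δ*ve-1* A15 and 84.2, 127, 117 and 184 CPM in Δ*ve-1* S. It had 8.56 and 7.33 CPM in wild-type A15 and 76.2, 60.6, 91.4 and 50.3 CPM in wild-type S. The log2FC was -3.81 ± 0.423 in Δ*ve-1* and -3.13 ± 0.406 in the wild type (SE). The histidine biosynthesis gene *his-6* (NCU07156) had 32.4 and 62.9 CPM in Δ*ve-1* A15 and 291, 177, 458 and 350 CPM in Δ*ve-1* S, with a log2FC of -2.74 ± 0.481 (SE), and it fell by 2.39 ± 0.471 in the wild type (SE). NCU09295 and NCU07126 also fell in both strains, as did *arp2* (NCU07171), which encodes a subunit of the actin-nucleating Arp2/3 complex (log2FC -1.7 ± 0.303 in Δ*ve-1* and -0.87 ± 0.29 in the wild type, SE). *nuo14* (NCU09299) and *nuo21.3c* (NCU05009), for subunits of respiratory complex I, fell in Δ*ve-1* with log2FCs of -1.23 and -1.85, and in the wild type they had -0.64 and -1.03 and did not pass the test. *aac* fell in Δ*ve-1* (log2FC -1.52 ± 0.373, SE) and was not called in the wild type (-0.33 ± 0.351, SE). The same holds for NCU09475 and NCU09474, while NCU09476 fell in both. The difference between the strains was not called for any of them.

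Of 318 pairs of neighboring tested members, both rose in 48 (15.1%) in Δ*ve-1*, against 8.99% of pairs of other genes, and in 45 (14.2%) in the wild type, against 4.94% of pairs of other genes. Members were also called more often one by one, and these shares do not allow for that. The counts of runs that follow do not either, and no runs were counted among the other genes. There were 9 runs of 3 or more consecutive tested members that rose in Δ*ve-1* and 10 in the wild type, the longest of 7 genes in each. One of them, near the right end of VII (4157036 to 4174112 in the wild type), spans the monooxygenase genes *mox-9* (NCU05883) and *mox-5* (NCU05885), the transporter gene *mfs-15* (NCU05884), NCU05886, which encodes a membrane protein, the oxidoreductase gene NCU05887, NCU05888 and NCU11305. NCU05887 had 150 and 328 CPM in Δ*ve-1* dark A15 and 0.607, 2.86, 0.5 and 0.647 CPM in Δ*ve-1* S, and the other 5 genes from *mox-9* to NCU05888 rose with log2FCs between 4.79 and 9.33 in Δ*ve-1*. In the wild type the 7 genes rose by 3.45 to 7.46. NCU11305 was not called in Δ*ve-1* (adjusted *P* = 0.13), where it had 0.0588 and 0.141 CPM in A15.

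The other run of 7 genes covered the outermost genes of the left end of III (9257 to 29028), from NCU09526 to NCU09520. It includes NCU09525, described as an extracellular deoxyribonuclease, and NCU09520, described as a putative histidine kinase of a two-component system. They rose in Δ*ve-1* with log2FCs of 1.92 to 5.88, but not evenly in its dark A15 libraries. NCU09522 had 13.6 CPM in replicate 1 and 91.2 CPM in replicate 2, against 7.97 to 16.7 CPM in Δ*ve-1* S. NCU09523 had 5.29 and 43.9 CPM, against 0.79 to 3.03 CPM in Δ*ve-1* S, and NCU09521 had 56.1 and 220 CPM, against 14.6 to 32.6 CPM. In the wild type, NCU09525, NCU09524, NCU09521 and NCU09520 rose and the other three did not pass the test. NCU09520 had 80.7 and 109 CPM in Δ*ve-1* dark A15 and 33.9 and 14.2 CPM in wild-type dark A15, against 0.953 to 2.17 CPM in Δ*ve-1* S and 0.971 to 2.24 CPM in wild-type S. Runs of 5 genes rose at the right ends of III and VI in the wild type and at the right end of IV in both strains, and in Δ*ve-1* 1 run fell, the 4 genes from NCU09474 to *aac* at the right end of II.

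Gene groups were taken from the names and descriptions that accompany 84 of the 393 members in the study's own lists. These exist mainly for genes that the study selected on these samples, so that the counts are not independent evidence of a direction. All 6 transporter genes rose in both strains (*aap-18*, *mfs-21*, *aap-8*, *sut-18*, *mfs-15* and *sut-28*), with a median log2FC of 4.63 in Δ*ve-1* and 6.23 in the wild type. Of 10 genes for carbohydrate-active enzymes, 7 rose in Δ*ve-1* (median log2FC 3.11) and 8 in the wild type (median 3.33). Of 6 oxidoreductase genes, 4 rose in Δ*ve-1* and 6 in the wild type. The medians over all genes tested were 0.1 in Δ*ve-1* and 0.02 in the wild type. Of the 43 members called hypothetical proteins, 23 rose and 10 fell in Δ*ve-1* (median log2FC 2.1), and 26 rose and 6 fell in the wild type (median 2.99). Over all genes tested, 25.1% rose and 19.2% fell in Δ*ve-1*, and 17.5% rose and 9.47% fell in the wild type.

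The comparison of Δ*ve-1* with the wild type in V asked what the deletion changed in vegetative mycelia. In light V, 15 of 304 tested members rose in Δ*ve-1* and 32 fell, when 4.41% of all tested genes rose and 5.88% fell. The members' shares were 4.93% and 10.5%. In dark V, 12 members rose (3.95%) and 31 fell (10.2%), when 3.52% of all tested genes rose and 6.28% fell. The members' shares were above those of all genes mainly among the falls, and the median log2FC of the members was -0.04 in light V and 0.01 in dark V. Of the falls, 22 were in both light conditions, which share no library (68.8% of those in light V and 71.0% of those in dark V, against 73.2% and 68.6% over all genes tested). Of the rises, 10 were shared (66.7% and 83.3%, against 54.4% and 68.1% over all genes tested). By the DEG rule only NCU09906 was called in either condition, 0.329% of members when 0.606% of all genes in light V and 0.683% in dark V were DEGs. The excess of falls in light V was not there without Δ*ve-1* light replicate 1, when 12 members were called and 1.64% of members and 1.65% of all genes fell, and it was small without Δ*ve-1* light replicate 2, when 17 members were called and 2.96% of members and 2.51% of all genes fell. In dark V, 19 members were called without Δ*ve-1* dark replicate 1 (4.28% fell, against 2.27% of all genes) and 18 without wild-type dark replicate 2 (4.61% fell, against 2.4% of all genes).

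Of the carbohydrate-active enzyme genes, 4 of 9 tested fell in light V and 3 of 9 in dark V, of 4 transporter genes only *aap-8* fell in either, and of 37 tested members called hypothetical proteins 10 fell in light V and 12 in dark V. Over all genes tested, 5.88% fell in light V and 6.28% in dark V. The descriptions again come from lists that the study selected on these samples. *gh16-12* (NCU09904), a glucan glucosidase gene 16.3 kb from the left end of I, had at most 2.16 CPM in Δ*ve-1* and 17.4 and 37.2 CPM in the wild type in light V, and 1.94 and 3.56 CPM in Δ*ve-1* and 25.1 and 34.0 CPM in the wild type in dark V. Its log2FC was -3.91 ± 0.442 in light V and -3.4 ± 0.416 in dark V (SE, adjusted *P* = 0.00119 and 0.00173). NCU09906, on the same arm, had 3.91 and 5.06 CPM in Δ*ve-1* and 22.3 and 35.4 CPM in the wild type in light V, with a log2FC of -2.68 ± 0.261 (SE, adjusted *P* = 0.000521), and in dark V the log2FC was -2.48 ± 0.255 (SE). All 4 libraries of each strain were apart for both genes.

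The xylanase gene *gh10-3* (NCU04997) had 49.8 and 42.6 CPM in Δ*ve-1* and 110 and 112 CPM in the wild type in light V (log2FC -1.27 ± 0.135, SE), and it fell by 1.44 ± 0.136 in dark V (SE). The amino acid permease gene *aap-8* (NCU07129) had 4.72 and 4.96 CPM in Δ*ve-1* and 12.7 and 27.6 CPM in the wild type in light V, with a log2FC of -2.06 ± 0.494 (SE), and it fell by 2.99 ± 0.501 in dark V (SE). NCU10572, described as a short chain oxidoreductase, had a log2FC of -2.77 in both conditions. At the right end of III, NCU11292 had 134 and 209 CPM in Δ*ve-1* and 562 and 725 CPM in the wild type in dark V (log2FC -1.9 ± 0.22, SE), and its neighbors NCU11291 and NCU16718, the outermost gene of that end, fell too. *set-6* (NCU09495), a SET domain gene and the outermost gene of the right end of II, had 5.2 and 5.17 CPM in Δ*ve-1* and 13 and 17 CPM in the wild type in light V, with a log2FC of -1.53 ± 0.293 (SE).

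At the left end of III, 4 consecutive genes between 85931 and 99187 fell in dark V. The glucanase gene *gh71-3* (NCU11405) had 1.11 and 0.98 CPM in Δ*ve-1* and 16 and 12.2 CPM in the wild type (log2FC -3.76 ± 0.449, SE), NCU09506 fell by 2.73 ± 0.324 (SE), NCU09505 by 0.93 and NCU09504 by 0.87. In light V, *gh71-3* and NCU09506 fell, with log2FCs of -3.74 and -2.26, and NCU09505 and NCU09504 had -0.52 and -0.32 and did not pass the test.

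Rises in Δ*ve-1* V were smaller. NCU10641 had 10.3 and 11.4 CPM in Δ*ve-1* and 1.94 and 2.79 CPM in the wild type in dark V (log2FC 2.2 ± 0.254, SE). NCU09914 had 13.6 and 13.7 CPM in Δ*ve-1* and 4.91 and 4.86 CPM in the wild type in light V (log2FC 1.48 ± 0.162, SE), and NCU04991, the outermost gene of the right end of VI, had a log2FC of 1.21 ± 0.21 in light V and 1.28 ± 0.2 in dark V (SE). *his-6* had 425 and 422 CPM in Δ*ve-1* and 240 and 275 CPM in the wild type in light V (log2FC 0.72 ± 0.12, SE). NCU09294, near the left end of VII, had 14 and 13 CPM in Δ*ve-1* and 6.4 and 4.86 CPM in the wild type in light V (log2FC 1.26 ± 0.163, SE), and it rose by 1.01 ± 0.153 in dark V (SE).

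In A15, more members fell in Δ*ve-1* than rose. In light A15, 10 of 328 tested members rose in Δ*ve-1* and 27 fell, when 1.75% of all tested genes rose and 2.9% fell. The members' shares were 3.05% and 8.23%. In dark A15, 3 members rose (0.915%) and 20 fell (6.1%), when 1.1% of all tested genes rose and 1.98% fell. None was a DEG when the cutoffs of the study were applied to the edgeR test, which made DEGs of 0.0244% of all genes in light A15 and 0.0% in dark A15. The study took its own DEGs from DESeq2, so this is no count of the study's DEGs among the members. The median absolute log2FC of the members was 0.69 in light A15 and 0.72 in dark A15, against 0.47 and 0.46 for other genes. Of the falls, 13 were in both light conditions (48.1% of those in light A15 and 65.0% of those in dark A15, against 46.2% and 67.9% over all genes tested). So were the rises of *cat-4*, NCU09597 and NCU09630 (30.0% and 100.0%, against 34.3% and 54.4% over all genes tested). With 2 libraries a group, 1 library decided many calls: 82 members were called in dark A15 without Δ*ve-1* replicate 1 (41 rose and 41 fell, 12.5% each, when 10.4% of all genes rose and 7.18% fell) and 12 without Δ*ve-1* replicate 2 (3.66%, when 2.14% of all genes were called), and none was called without wild-type replicate 1 or 2, when at most 0.0366% of all genes were. In light A15, no member was called without either Δ*ve-1* library, when 0.0244% of all genes were called in each case. Without wild-type replicate 1, 9 were called (2.74% of members, when 0.732% of all genes were called). Without wild-type replicate 2, 43 were called (13.1%, when 5.53% of all genes were called). DESeq2 on the same libraries called 30 members that rose and 45 that fell in light A15 (9.15% and 13.7%, when 5.27% and 7.47% of all genes did), and 17 that rose and 39 that fell in dark A15 (5.18% and 11.9%, when 5.19% and 5.2% of all genes did). The A15 calls below rest on these libraries.

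The ends of chromosome IV held 16 of the 27 falls in light A15 and 9 of the 20 in dark A15, of 45 tested members there. At its right end, 8 of 18 tested members fell in each condition, and the median log2FC was -1.48 in light A15 and -1.36 in dark A15. NCU10040, of unknown function and 10.3 kb from that end (5939000 to 5940994), had 118 and 256 CPM in Δ*ve-1* and 9440 and 3440 CPM in the wild type in light A15, with a log2FC of -5.13 ± 0.788 (SE, adjusted *P* = 0.0214). In dark A15 it had 193 and 304 CPM in Δ*ve-1* and 5620 and 11000 CPM in the wild type, with a log2FC of -5.03 ± 0.784 (SE, adjusted *P* = 0.028). The strains overlapped in V, where it had 8.03 to 96.1 CPM in Δ*ve-1* and 18.2 to 53.3 CPM in the wild type. Beside it, NCU10039 fell by 4.4 in light A15 and 4.24 in dark A15, and *gdp-1* (NCU10038), a phosphodiesterase gene and the outermost tested gene of that end, fell by 2.93 and 2.23. Farther in, NCU10070, NCU05162 and the metalloprotease gene *mpr-15* (NCU05160) fell in both conditions.

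At the left end of IV, 8 of 27 tested members fell in light A15 and 1 in dark A15. The polyketide synthase gene *pks-5* (NCU09638, 11075 to 19163) had no count in either Δ*ve-1* library and 25.9 and 6.83 CPM in the wild type in light A15, so that its mean was at least 96.3-fold lower in Δ*ve-1* against a floor of 3 counts in a library (adjusted *P* = 0.0214). In dark A15 it had no count in Δ*ve-1* and 1.12 and 1.19 CPM in the wild type, and the difference was not called (adjusted *P* = 0.0624). It had no count in V or S of either strain. Polyketide synthases build the carbon skeletons of many secondary metabolites. The cytochrome P450 gene *cyp450-33* (NCU10285), the outermost gene of that end, had no count in Δ*ve-1* and 10.4 and 1.81 CPM in the wild type in light A15, and NCU09636 had no count in Δ*ve-1* and 11.9 and 3.52 CPM in the wild type. NCU09635 had 41.1 and 67.4 CPM in Δ*ve-1* and 311 and 136 CPM in the wild type, and NCU09639 had 0.211 and 0.113 CPM in Δ*ve-1* and 10.1 and 1.76 CPM in the wild type. All of them fell. NCU09637, which overlaps *pks-5* by 8089 bases on the opposite strand, had 137 and 178 CPM in Δ*ve-1* and 289 and 135 CPM in the wild type and was not called.

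**Figure D3:**
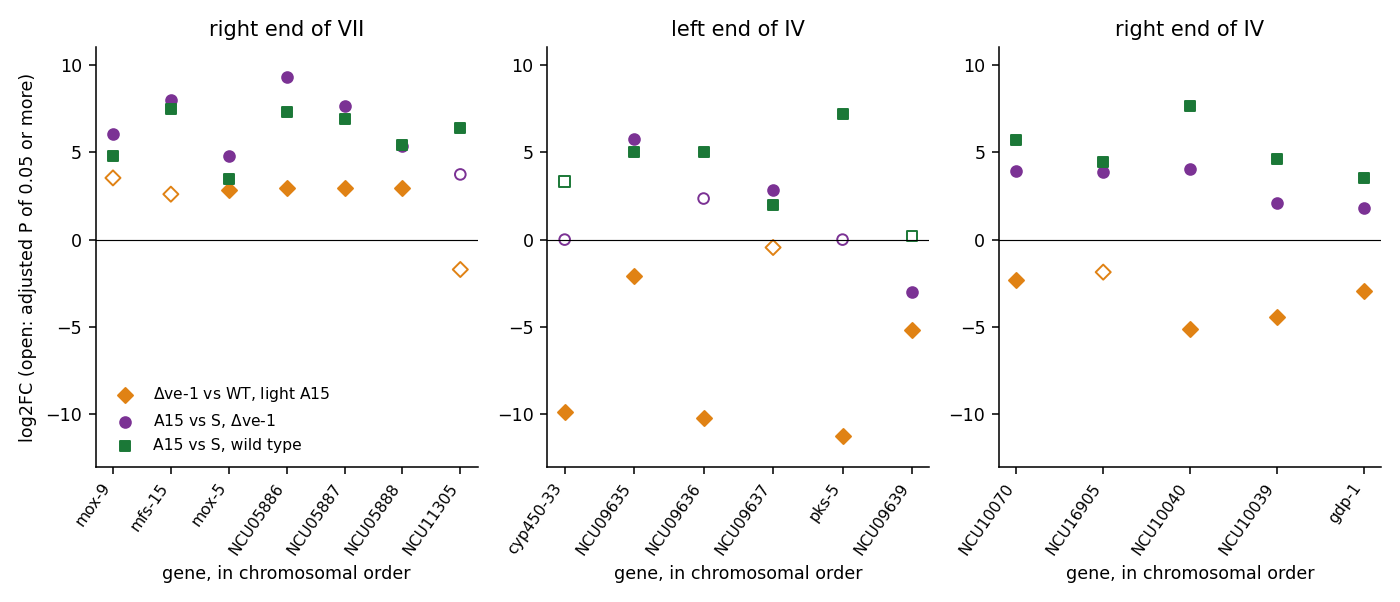
Fitted log2FC of the genes in 3 stretches, in chromosomal order, for Δve-1 over the wild type in light A15 (orange diamonds), dark A15 over S in Δve-1 (purple circles) and dark A15 over S in the wild type (green squares), with open symbols for an adjusted P of 0.05 or more. At the left and right ends of IV the strain effects lie below 0, down to -11.26 for pks-5, and at the right end of VII those of mox-9 to NCU05888 lie above 0. Fitted values of genes without a count in a group depend on the prior count of the fit and are no bound.

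Other members lower in Δ*ve-1* A15 were also lower in V. NCU10572 had 8.33 and 6.58 CPM in Δ*ve-1* and 542 and 83.9 CPM in the wild type in light A15 (log2FC -5.42 ± 0.837, SE), and 7.29 and 6.37 CPM in Δ*ve-1* and 181 and 268 CPM in the wild type in dark A15 (log2FC -5.01 ± 0.823, SE). *aap-8* had 7.4 and 7.21 CPM in Δ*ve-1* and 134 and 234 CPM in the wild type in dark A15, with a log2FC of -4.63 ± 0.69 (SE). *gh16-12* had 0.764 and 1.27 CPM in Δ*ve-1* and 22.7 and 25.8 CPM in the wild type in dark A15, with a log2FC of -4.55 ± 0.963 (SE). NCU09620, 29759 bases from the left end of II, had 1.65 and 1.2 CPM in Δ*ve-1* and 36.6 and 64.7 CPM in the wild type in dark A15 (log2FC -5.12 ± 0.94, SE), and it fell by 1.21 ± 0.218 in dark V (SE). *gh71-3* had no count in Δ*ve-1* dark A15 and 16.2 and 16.4 CPM in the wild type, a mean at least 76.7-fold lower in Δ*ve-1* against 3 counts in a library. The 4 genes from *gh71-3* to NCU09504 fell in dark A15, and none of them was called in light A15, where the wild-type libraries had 1.54 and 0.104 CPM of *gh71-3*. Across comparisons without a shared library, 12 of the 20 falls in dark A15 were among the 31 in dark V (60.0% and 38.7%, against 44.4% and 14.8% over all genes tested), and 10 of the 27 falls in light A15 were among the 32 in light V (37.0% and 31.2%, against 30.7% and 16% over all genes tested). No rise of a member was shared between A15 and V in the same light condition, of 3 in dark A15 and 10 in light A15. Over all genes tested, 9 of 90 rises in dark A15 and 8 of 143 in light A15 were shared with V. The rises of members were too few to tell them from all genes in this respect.

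**Figure D4:**
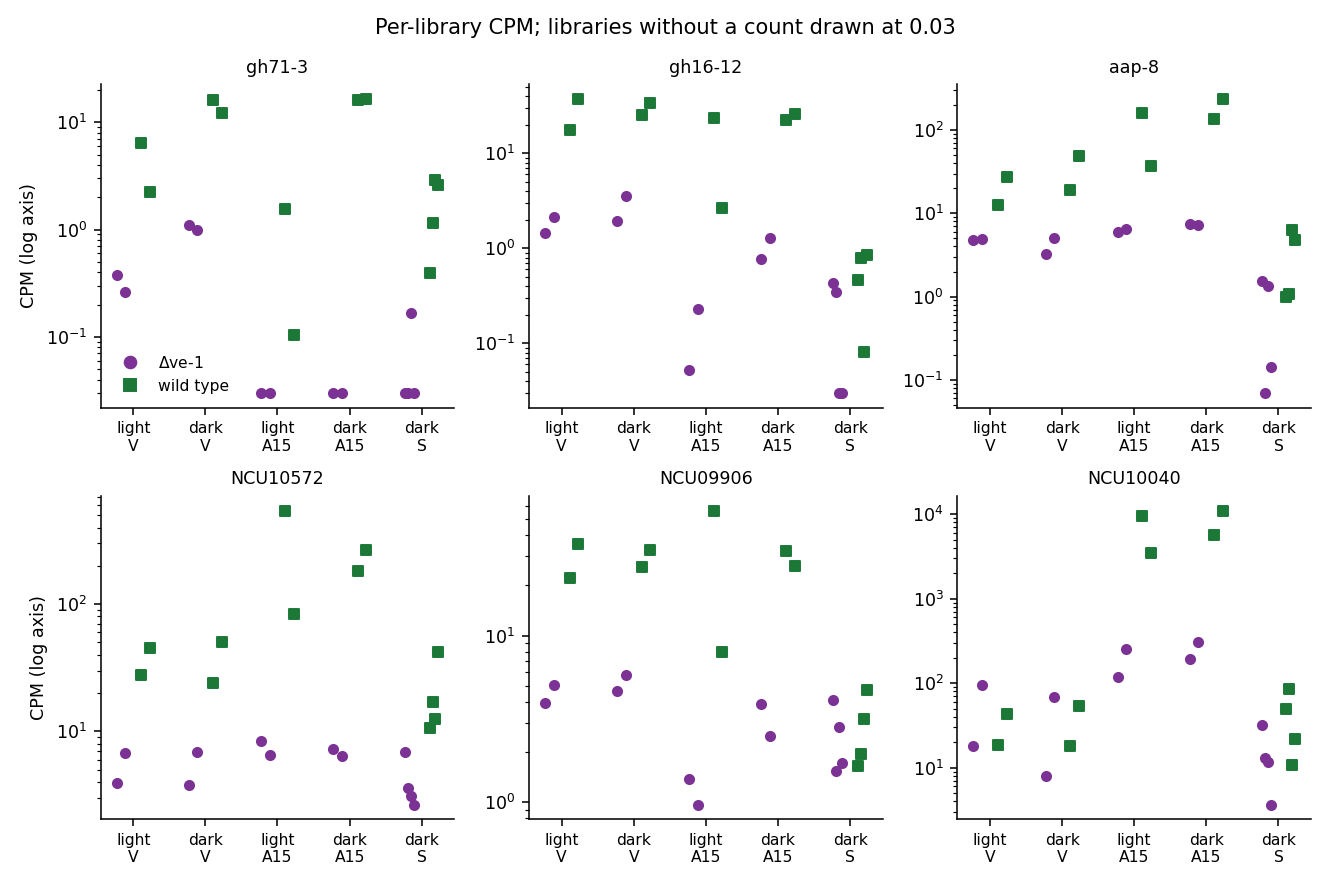
CPM of 6 members in every library of Δve-1 (purple circles) and the wild type (green squares) on log axes, with libraries without a count drawn at 0.03. In V and A15 the Δve-1 libraries lie below the wild-type libraries for 5 of the genes, and for NCU10040 they do so only in A15.

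Members higher in Δ*ve-1* A15 included *cat-4*, with 416 and 625 CPM in Δ*ve-1* and 98.7 and 134 CPM in the wild type in light A15 (log2FC 2.14 ± 0.389, SE) and 484 and 569 CPM in Δ*ve-1* and 163 and 122 CPM in the wild type in dark A15 (log2FC 1.91 ± 0.386, SE). Catalases break down hydrogen peroxide. NCU09597 had 15.1 and 16.4 CPM in Δ*ve-1* and 1.74 and 1.24 CPM in the wild type in light A15 (log2FC 3.37 ± 0.508, SE). NCU09520 had 97.3 and 102 CPM in Δ*ve-1* and 16.6 and 10.6 CPM in the wild type (log2FC 2.85 ± 0.479, SE). In the run at the right end of VII, *mox-5*, NCU05886, NCU05887 and NCU05888 rose in light A15 with log2FCs between 2.85 and 2.96. NCU05887 had 531 and 496 CPM in Δ*ve-1* and 70.8 and 59.1 CPM in the wild type. In dark A15 the same gene had 150 and 328 CPM in Δ*ve-1* and 165 and 47.8 CPM in the wild type, the strains overlapped, and it was not called (log2FC 1.2, adjusted *P* = 0.322).

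Without allowance for the higher share of members called, neighboring members were called in the same direction in 13 of 314 pairs (4.14%) in light A15 and 8 (2.55%) in dark A15, against 0.523% and 0.281% of pairs of other genes. In V these shares were 1.72% in the light and 2.07% in the dark for members, and 1.33% and 1.36% for other genes.

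In S, edgeR called only NCU09651, 69.3 kb from the left end of IV, when 0.655% of all genes were called. DESeq2 on the same libraries called 9 members that rose and 12 that fell (6.34%, when 4.88% of all genes were called). It had 1.04, 0.488, 0.75 and 0.575 CPM in Δ*ve-1* and 4.63, 4.63, 6.72 and 3.88 CPM in the wild type. The groups did not overlap, and the log2FC was -2.8 ± 0.389 (SE, adjusted *P* = 0.00369). It also fell in dark V (log2FC -0.83) and light A15 (log2FC -3.09). At an unadjusted *P* under 0.05, 71 members (21.4%) differed, against 16.7% of other genes. Without Δ*ve-1* replicate 1, the library with 18.6 CPM of *ve-1*, 8 members rose and 14 fell (6.63% of members, when 4.01% of all genes were called). Without wild-type replicate 1, 3 or 4, 2 members were called (0.602%, when between 0.485% and 0.765% of all genes were). *gh71-3*, with 0, 0, 0.167 and 0 CPM in Δ*ve-1* and 0.397, 1.16, 2.91 and 2.62 CPM in the wild type, did not pass the test (adjusted *P* = 0.0534), nor did NCU10572 (log2FC -2.34, adjusted *P* = 0.0647).

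Exposure of V to 30 min of light asked which members responded to light. In Δ*ve-1*, 18 of 304 tested members rose (5.92%) and 19 fell (6.25%), when 7.07% of all tested genes rose and 5.73% fell. In the wild type, 30 rose (9.87%) and 26 fell (8.55%), when 7.98% of all tested genes rose and 7.4% fell. These shares were close to the background. In Δ*ve-1*, 22 members were called without dark replicate 1, 21 without light replicate 1 and 20 without light replicate 2, when 7.14% to 7.31% of all genes were called. In the wild type, 33 were called without dark replicate 1 (10.9%, when 10.5% of all genes were called). The members were further above the background without the other wild-type libraries. Without light replicate 1, 19.7% of members and 15.3% of all genes were called. The shares were 12.8% and 9.52% without dark replicate 2, and 13.8% and 10.4% without light replicate 2. By the DEG rule 5 members rose and none fell in each strain, 1.64% of members when 1.01% of all genes in Δ*ve-1* and 1.3% in the wild type were DEGs. Of the rises, 16 were found in both strains (88.9% of those in Δ*ve-1* and 53.3% of those in the wild type, against 81.2% and 72.1% over all genes tested). All 19 falls in Δ*ve-1* were among the 26 of the wild type (100.0% and 73.1%, against 83.6% and 64.8% over all genes tested). No member had an interaction of strain and light in V or in A15, when 0% of all genes had one, and 14 of 304 members in V and 13 of 328 in A15 had an unadjusted *P* under 0.05. DESeq2 called none in either, and edgeR called 3 members in A15 without Δ*ve-1* dark replicate 1 (0.915%, when 0.366% of all genes were called).

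The responses ranged widely. NCU08770 and *con-6*, neighbors 69.4 and 67.8 kb from the right end of III, had log2FCs of 8.95 ± 0.539 and 8.06 ± 0.604 in Δ*ve-1* and of 9.33 ± 0.536 and 8.78 ± 0.624 in the wild type (SE). NCU08771, the next gene, which is described as an acetolactate synthase and rose with them in A15 over S (log2FC 4.69 in Δ*ve-1* and 6.36 in the wild type), had log2FCs of 0.37 and 0.29 and was not called. The carotenoid oxygenase gene *cao-2* (NCU11424), 1.5 kb from the left end of VII, had 758 and 890 CPM in light and 27.1 and 33.8 CPM in dark in Δ*ve-1* V, and the next 2 genes inward, NCU09305 and NCU09304, rose with it in the wild type, of which NCU09305 also rose in Δ*ve-1*. The transcription factor gene *vad-14* (NCU09615) had 110 and 117 CPM in light and 20.8 and 21.5 CPM in dark in Δ*ve-1* (log2FC 2.43 ± 0.111, SE), and 161 and 162 CPM in light and 30.8 and 32.9 CPM in dark in the wild type (log2FC 2.34 ± 0.11, SE). In the wild type it stood in a run of 3 genes that rose, with NCU09617 and NCU09616.

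Genes that fell after light changed less. NCU07121 had 22.9 and 21.8 CPM in light and 46.5 and 44.0 CPM in dark in Δ*ve-1*, and 21.0 and 15.1 CPM in light and 54.3 and 57.2 CPM in dark in the wild type, with log2FCs of -1.02 ± 0.154 and -1.63 ± 0.158 (SE). *eef3-2* (NCU09903), named for a translation elongation factor, had log2FCs of -1.41 ± 0.181 in Δ*ve-1* and -1.38 ± 0.186 in the wild type (SE). *emp-11* (NCU09489), described as a phosphoglycerate mutase, fell by 1.46 in Δ*ve-1* and 1.52 in the wild type, with its neighbor NCU09488. Of the 4 genes from *gh71-3* to NCU09504, all but *gh71-3* fell after light in Δ*ve-1* V, and all 4 did in wild-type V, with log2FCs between -1.7 and -1.22. These are the genes that were lower in Δ*ve-1* than in the wild type in dark V.

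**Figure D5:**
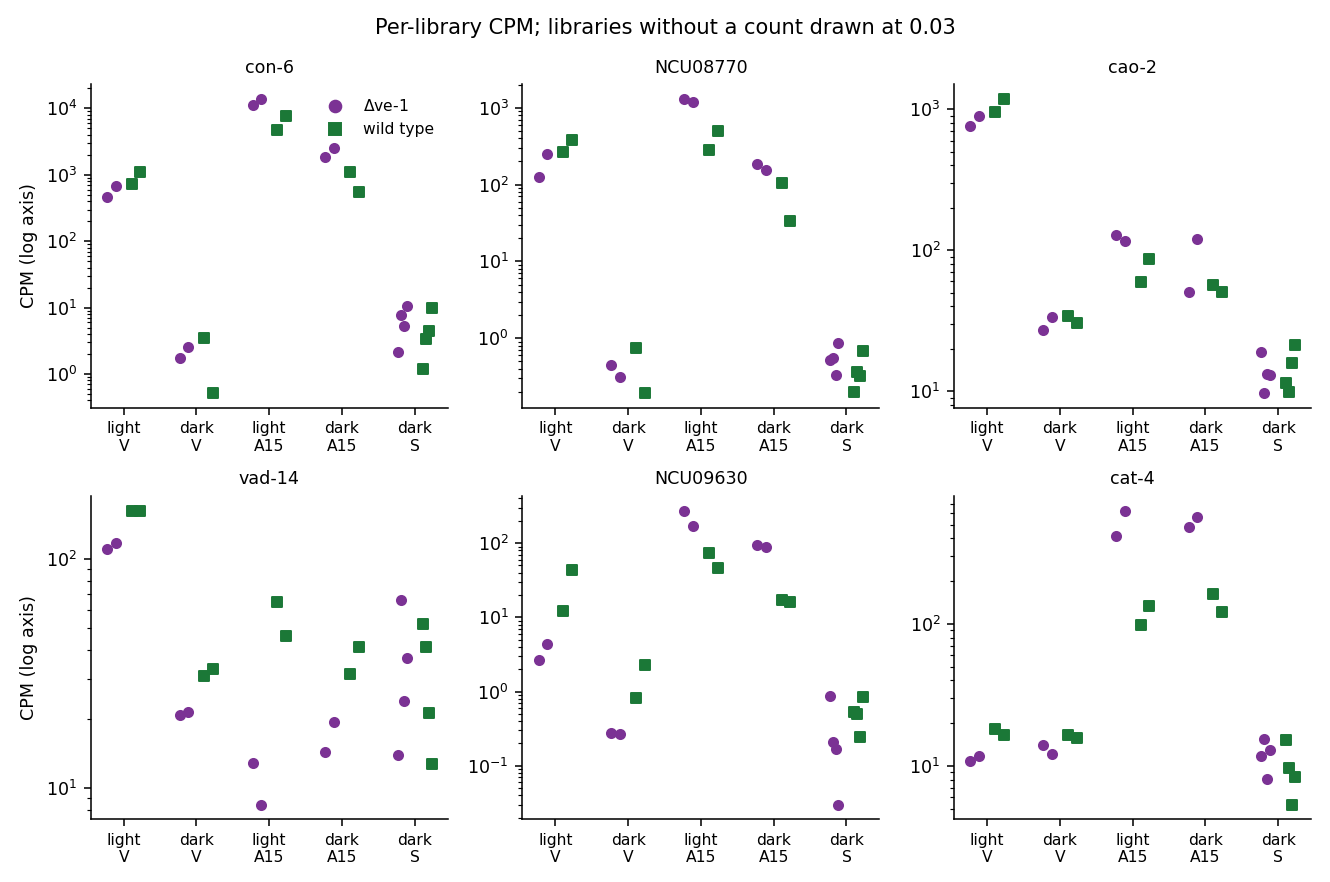
CPM of 6 members in every library of Δve-1 (purple circles) and the wild type (green squares) on log axes, with libraries without a count drawn at 0.03. For con-6, NCU08770, cao-2 and vad-14 the light V libraries lie above the dark V libraries in both strains, and NCU09630 and cat-4 are higher in Δve-1 than in the wild type in A15 but not in V.

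In A15, no member was called after light in either strain by the edgeR test, when 0% of all genes were called in each. At an unadjusted *P* under 0.05, 45 members in Δ*ve-1* and 46 in the wild type of 328 differed (13.7% and 14.0%, against 12.1% and 8.98% of other genes), and DESeq2 called 18 in each (5.49%, when 3.48% of all genes in Δ*ve-1* and 2.67% in the wild type were called). *con-6* had 11400 and 13800 CPM in light and 1840 and 2500 CPM in dark in Δ*ve-1* A15 (log2FC 2.52 ± 0.565, SE, adjusted *P* = 0.217), and 4740 and 7810 CPM in light and 1100 and 553 CPM in dark in the wild type (log2FC 2.95 ± 0.575, SE, adjusted *P* = 0.144). The light libraries were above the dark libraries in both strains. *cao-2* had 128 and 116 CPM in light and 50.2 and 121 CPM in dark in Δ*ve-1* A15, and the groups overlapped. *vad-14* had 12.8 and 8.45 CPM in light and 14.3 and 19.4 CPM in dark in Δ*ve-1* A15, and it fell in Δ*ve-1* against the wild type in light A15 (log2FC -2.41 ± 0.376, SE). Without Δ*ve-1* dark replicate 1, 40 members were called after light in Δ*ve-1* A15, when 9.74% of all genes were. Without wild-type light replicate 1 or 2, 2 members or 1 were called in the wild type, when at most 0.134% of all genes were.

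The strain by stage interaction, the difference between the A15 over S effects of the strains, was called for no member by edgeR, when 0.0243% of all genes had one, and for 10 by DESeq2 (3.15%, when 2.35% of all genes had one). Without Δ*ve-1* S replicate 1, edgeR called 5 members (1.51%, when 1.37% of all genes were called). At an unadjusted *P* under 0.05, 54 of 332 members (16.3%) differed, against 12.6% of other genes. The different numbers of members that rose or fell in A15 in the strains are therefore not shown to differ gene by gene.

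The outermost gene that passed the filter at each end did not follow one pattern. *cyp450-33*, *set-6*, NCU04991 and NCU16718 were called between the strains as given above. NCU10129 at the left end of I had 85.5 and 144 CPM in light A15 and 38 and 76.4 CPM in dark A15 of Δ*ve-1*, and 61.9 and 28.3 CPM in light A15 and 15.8 and 18.3 CPM in dark A15 of the wild type. It fell in Δ*ve-1* V (log2FC -1.28 in light and -1.19 in dark), and it rose in A15 over S in Δ*ve-1* (log2FC 4.32 ± 0.575, SE). NCU08882 at the left end of V had 80.2 and 92.2 CPM in Δ*ve-1* dark A15 and 229 to 475 CPM in Δ*ve-1* S, and fell in both strains. NCU09306 at the left end of VII, NCU05903 at the right end of VII, NCU10031 at the right end of I and NCU07149 at the right end of V were called in none of the comparisons in which they were tested.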

How the data were processed

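RNA was sequenced from 24 libraries of Δ*ve-1* and the wild type. Per the labels and the study's methods, the authors aligned single-end reads with TopHat2 2.11 to the NC12 assembly of OR74A and deposited 1 table of raw counts per gene, made with SeqMonk over the exons of merged transcripts with strand taken into account. Of the members, 92 overlap another gene, 90 of them on the opposite strand. Gene coordinates are those of the deposited table.

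Counts were analysed as deposited with edgeR 4.0.16 in R 4.3.3 (TMM scaling, filterByExpr with a minimum count of 10, quasi-likelihood F test, Benjamini-Hochberg adjustment over all genes tested), with 1 fit for V, 1 for A15 and 1 for S with A15, each with a mean per group. Genes with an adjusted *P* under 0.05 were called, and the DEG rule added an absolute log2FC of at least 2 and an adjusted *P* under 0.001. log2FC is Δ*ve-1* over the wild type, light over dark or A15 over S, and fitted values of genes without a count in a group depend on the prior count. Alternatives were DESeq2 1.42.0, other scalings, no filter, a replicate block, other windows (50000 and 200000 bases) and each library left out. The fits were also run on simulated counts with a common dispersion for all genes of a fit, which does not test the spread of these libraries. Figures were drawn with matplotlib 3.10.9 in Python 3.11.15.

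The members and gene lists were chosen with earlier results of these data known. Named genes were the 8 largest rises and 8 largest falls of each comparison among called members whose compared libraries did not overlap and whose higher group averaged 10 CPM or more, the outermost tested gene of each end, the 10 highest levels per length, called members with a symbol in the RefSeq gene table of NC12, and runs of at least 3 neighboring calls. Other genes named, mostly neighbors of these, were chosen after their values were seen. Symbols came from that table and the study's lists, and descriptions from those lists alone. Fold bounds set the mean of the higher group against the floor and do not allow for the spread between its libraries. Floors cover counting error only.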

Additional observations from a re-analysis of the deposited data

Results flagged for a closer look

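The strain effect of 3 members had opposite signs in light V and light A15, with every Δ*ve-1* library on one side of the wild-type libraries in each. The log2FC of NCU05163 was 1.22 in light V and -1.61 in light A15. That of *cat-4* (NCU05169) was -0.6 in light V and 2.14 in light A15, and that of NCU09630 was -2.94 in light V and 1.87 in light A15. V and A15 were fitted separately, and the difference between them was not tested.

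In S, 1 library stood apart from the other 3 of its group for 3 of 44 gene and group combinations examined with Dixon's test, which flags about 1 in 20 by chance. These were the highest Δ*ve-1* library for *mfs-15* (NCU05884, 0.279 CPM), the highest wild-type library for the same gene (0.132 CPM) and the lowest wild-type library for NCU05886 (0.132 CPM). All of them are close to the detection floor.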

How the results depend on the processing

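Values are the percentage of tested members called. The DEG rule gave 0.329 for the strain effects in dark V and light V, 0.0 in dark A15, light A15 and S, 1.64 for each light effect in V, and for A15 over S 19.0 in Δ*ve-1* and 15.4 in the wild type. DESeq2 on the same libraries gave 17.1 in dark A15, 22.9 in light A15, 6.34 in S, 5.49 for each light effect in A15 and 3.15 for the strain by stage interaction. Over all genes tested it gave 10.4 in dark A15, 12.7 in light A15 and 4.88 in S. For light in A15 it gave 3.48 in Δ*ve-1* and 2.67 in the wild type over all genes, and 2.35 for the interaction. DESeq2 on the compared groups alone gave 26.8 in light A15, 6.67 in S, and for light in A15 3.76 in Δ*ve-1* and 7.67 in the wild type. The matching shares over all genes were 17.4 in light A15, 4.46 in S, and for light in A15 2.14 and 3.93. In S, scaling by library size gave 1.51, no filter 0.531, and windows of 50000 and 200000 bases 0.0 and 0.846. The share over all genes was not taken with that scaling or without the filter.

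With a replicate block the values were 31.2 in dark V, 34.2 in light V, 0.602 in S, and for light in V 23.7 in Δ*ve-1* and 29.3 in the wild type, and no other value moved by more than 1.5 times. The share over all genes was not taken with the block, so these values do not set the members apart from other genes. Same-numbered libraries correlated at 0.411 to 0.549 in V and -0.385 to 0.653 in S, and the numbers were not shown to pair the libraries. A crossed numbering in wild-type A15, chosen after seeing the data, gave 0.0 for light.

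Leaving out each library in turn gave 5.92 to 12.8 in dark V, 3.95 to 15.5 in light V, 0.0 to 25.0 in dark A15, 0.0 to 13.1 in light A15 and 0.301 to 6.63 in S. For light in V it gave 6.58 to 8.88 in Δ*ve-1* and 10.9 to 19.7 in the wild type, for light in A15 0.0 to 12.2 in Δ*ve-1* and 0.0 to 0.61 in the wild type, and for A15 over S 36.1 to 48.2 in Δ*ve-1* and 22.0 to 34.3 in the wild type. For the interactions it gave 0.0 in V, 0.0 to 0.915 in A15 and 0.0 to 1.51 with stage. The cause of these changes was not tested. Of 122 results for single genes, all 122 kept their call with DESeq2, RLE scaling or no filter, 118 with the replicate block and 116 with library size alone. These results were chosen in part as large calls without overlap in the same counts, so the choice favored kept calls. With 1 library left out, 412 repeats of these results kept the call and 140 lost it.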
